A study of Citrus sinensis with 30 samples.

Results

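Dihydroflavonol reductase (DFR, Cs3g25090), anthocyanidin synthase (ANS, Cs5g09970) and a glutathione S-transferase (GST, Cs6g15900) were followed in juice sacs of stored orange fruit. They were taken from the deposited gene table by their identifiers, as 3 of 24179 genes, and all 3 passed the filter that left 16578 genes for testing. RNA-seq covered 30 libraries from 2 Citrus sinensis varieties. ‘Tarocco’ blood orange (TBO) forms red flesh, and ‘Bingtangcheng’ sweet orange (BTSO) does not. Mature fruit of both were kept in cold storage. Juice sacs of several fruit were sampled on 5 days after storage (DAS), which were days 0, 15, 30, 60 and 90, and every variety and day had 3 biological replicates. Both varieties shared the storage treatment and no unstored group ran beside the later days, so storage time and fruit age cannot be told apart.

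Anthocyanins are made from flavonoid precursors in the cytosol and kept in the vacuole. DFR reduces dihydroflavonols to leucoanthocyanidins, and ANS oxidises these to the coloured anthocyanidins, which are then glycosylated. Some plant GSTs bind the pigment and are needed for its movement into the vacuole, as known from maize, petunia and Arabidopsis. In blood orange the pathway is known to be driven by a MYB transcription factor, and cold storage is known to deepen the colour. The table described ANS by name and gave DFR and GST only as hypothetical proteins. The role of DFR rests on the enzyme class listed beside it. For GST the listed class is that of glutathione transferases in general and names no pigment role. The study counted this gene among its anthocyanin structural genes, and its function was not tested here. DFR and ANS were each the sole gene of their annotation in the table, whereas 76 genes were annotated as glutathione S-transferases. The identifiers place DFR on chromosome 3, ANS on chromosome 5 and GST on chromosome 6 (the identifier matched in all 8075 rows that list a chromosome), and the table listed no coordinates for the 3 genes.

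GST was also assayed by quantitative PCR in the study, and its primers are shown because they mark the transcript that was targeted outside the RNA-seq.
GST first primer: cttcttcgacagccgtttgg
GST second primer: gtttggcccttggtttgcat
Each primer has 20 bases and is written 5′ to 3′, and the PCR values were not used here.

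Totals of estimated counts ran from 51894138 to 75833189 per library, and replicates correlated with r between 0.969 and 0.985 across genes on the log2 scale, where genes are not independent replicates. The other tissues checked were seed and green tissue. The sum of 5 seed storage genes was 12.2 to 23.2 FPKM in TBO libraries and 17.4 to 27.8 in BTSO libraries, nearly all from 1 oleosin (orange1.1t03751, at most 27.1 FPKM), while the other 4 stayed at or below 1.96 FPKM. The sum of 6 chlorophyll a-b binding genes was 14.8 to 32.4 FPKM in TBO and 14.6 to 40.2 in BTSO, and in both varieties it was highest at 0 DAS. As libraries are bulk juice sacs, fewer expressing cells and less RNA per cell cannot be told apart.

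DFR was abundant in TBO and close to the detection limit in BTSO. FPKM, the unit used throughout, scales the fragments of a gene by its length and by the depth of the library. In TBO, DFR was 16.5, 41.8 and 28.8 FPKM in replicates 1, 2 and 3 at 0 DAS. At 15 DAS it was 92.6, 126 and 171 FPKM, and at 30 DAS 181, 88.3 and 104 FPKM. At 60 DAS it reached 248, 155 and 195 FPKM, and at 90 DAS it was 136, 97.1 and 145 FPKM. All 12 libraries of stored TBO fruit lay above the highest library at 0 DAS, and the later days overlapped one another except 60 and 90 DAS. The share of all genes with such a gap between days was not counted, here or for the statements on overlap between days below. In BTSO, DFR never exceeded 0.325 FPKM. It therefore passed the filter, an FPKM of 1 or higher in 3 or more libraries, only through its TBO libraries. It was listed at 0 in 3 of 15 BTSO libraries, of which 2 were from 0 DAS, and the remaining library of that day held an estimated count of 4.

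ANS was more abundant than DFR in every library and, like DFR, had its lowest TBO mean at 0 DAS and its highest at 60 DAS. In TBO it was 41.9, 87.6 and 54.9 FPKM at 0 DAS and 184, 230 and 317 FPKM at 15 DAS. It was 298, 143 and 163 FPKM at 30 DAS, 356, 231 and 290 FPKM at 60 DAS, and 148, 101 and 163 FPKM at 90 DAS. Here too the 0 DAS libraries lay below every later library. In BTSO, ANS was low but detected in all 15 libraries, with the lowest value of 0.836 FPKM and the highest of 3.67 FPKM.

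GST was the most abundant of the 3 genes in every TBO library. It was 174, 277 and 236 FPKM at 0 DAS and 527, 781 and 876 FPKM at 15 DAS. It was 716, 392 and 448 FPKM at 30 DAS, 891, 658 and 806 FPKM at 60 DAS, and 454, 319 and 479 FPKM at 90 DAS, so that the 0 DAS libraries were again the lowest. In BTSO it ranged from 0.268 to 4.33 FPKM. Ordered by FPKM among all genes, GST stood at position 73 in the median TBO library and at position 14587 in the median BTSO library. The median positions of ANS were 284 and 13324, and those of DFR were 450 and 18328. Of the summed FPKM of the 76 annotated glutathione S-transferases, this single gene held 7.64% to 27.6% in TBO libraries and 0.00858% to 0.230% in BTSO libraries. The sum itself overlapped between the varieties, at 1982 to 3406 FPKM in TBO and 1619 to 3127 FPKM in BTSO.

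**Figure D1:**
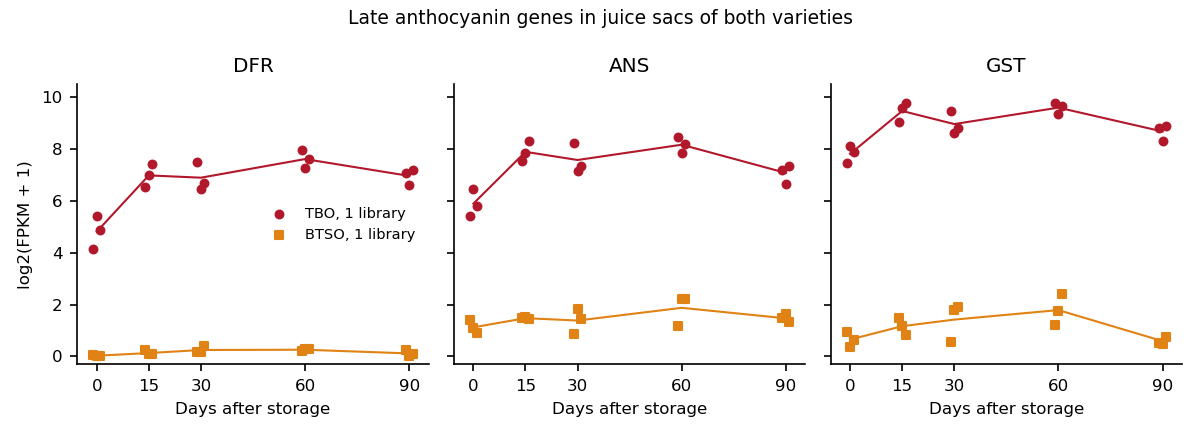
Level of DFR, ANS and GST as log2(FPKM + 1) against days after storage, with each point 1 library and lines through the mean of 3 libraries (circles TBO, squares BTSO). All TBO libraries lie above all BTSO libraries for each gene, and the DFR values of BTSO lie at or close to 0.

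All 3 genes were higher in TBO than in BTSO at each day, and no TBO library overlapped a BTSO library. The share of all genes without overlap between the varieties was not counted. Differences were tested with limma on log2(FPKM + 1) over all genes, and a gene was called at a Benjamini-Hochberg adjusted p under 0.05 with a log2 difference over 1. DFR entered these tests through its TBO libraries alone. DFR was higher by 4.79 ± 0.26 (SE of the fit, n = 3 per group) on this log2 scale at 0 DAS (limma adjusted p = 2.1e-12), and by 6.86, 6.66, 7.36 and 6.86 on the 4 later days in turn. ANS was higher by 4.78 ± 0.31 at 0 DAS (limma adjusted p = 3.5e-11), then by 6.42, 6.20, 6.30 and 5.62. GST was higher by 7.17 ± 0.32 at 0 DAS (limma adjusted p = 6.1e-14), then by 8.31, 7.55, 7.82 and 8.10. The share of all tested genes called higher in TBO was 3.85% at 0 DAS and, on the later days in turn, 5.16%, 5.5%, 6.65% and 5.91%. The median gene differed by 0.13 at 15 DAS and by less than 0.1 at the other days.

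The pseudocount of 1 lowers these differences where BTSO is near 0. As a ratio of mean FPKM, ANS was 51.5-fold higher in TBO at 0 DAS, and 137-fold, 118-fold, 102-fold and 77.4-fold higher on the later days in turn. GST was 388-fold higher at 0 DAS, then 570-fold, 274-fold, 295-fold and 821-fold, with no steady course. For DFR the ratio at 60 DAS, when the lowest BTSO library was at 0.151 FPKM, was 1030, and its size at 0 DAS has no firm basis because a single BTSO library was above 0.

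**Figure D2:**
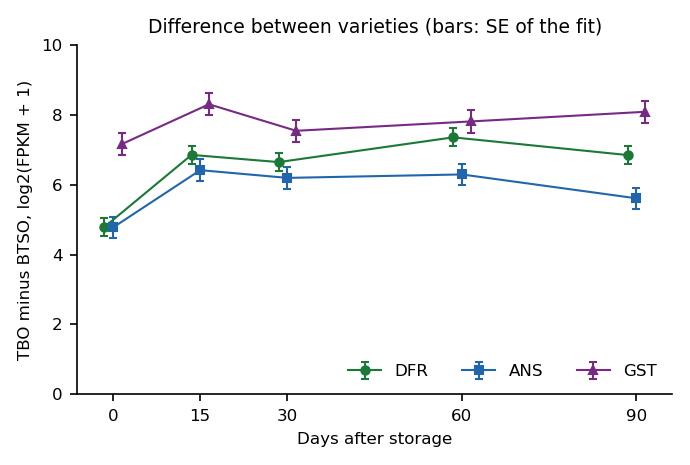
TBO minus BTSO in log2(FPKM + 1) against days after storage for DFR, ANS and GST, with bars showing the SE of the limma fit. All 15 differences lie between 4.78 and 8.31, and those of DFR depend on the added 1 because its BTSO level is near 0.

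Within TBO all 3 genes rose in the first 15 days of storage. DFR rose by 2.17 ± 0.26 on the log2(FPKM + 1) scale (limma adjusted p = 6.7e-06), from a mean of 29.0 ± 12.7 (SD, n = 3) to 130 ± 39.5 FPKM, which is 4.48 times the 0 DAS mean. ANS rose by 2.00 ± 0.31 (limma adjusted p = 0.00013), from 61.5 ± 23.5 to 244 ± 67.8 FPKM. GST rose by 1.66 ± 0.32 (limma adjusted p = 0.0012), from 229 ± 52.1 to 728 ± 180 FPKM. Of all genes tested, 0.73% were called higher at 15 than at 0 DAS in TBO. GST was the only 1 of 56 tested glutathione S-transferase genes among them.

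None of the 3 genes passed the test in the next 2 steps. From 15 to 30 DAS the log2 differences were −0.09 for DFR, −0.32 for ANS and −0.51 for GST (0.561% of all genes called lower). The sign for DFR turned without replicate 3 at 15 DAS (0.13) or replicate 2 (0.12) or 3 (0.005) at 30 DAS. From 30 to 60 DAS they were 0.72, 0.59 and 0.64 with limma adjusted p of 0.104, 0.294 and 0.268 (1.48% of all genes called higher). Without replicate 1 of TBO at 30 DAS the DFR difference was 1.02 and passed the test. The mean at 60 DAS was the highest of the 5 days for each gene, at 199 ± 46.6 FPKM for DFR, 292 ± 62.3 for ANS and 785 ± 118 for GST. Its libraries overlapped those of 15 DAS, the day next in order, for all 3 genes.

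From 60 to 90 DAS, ANS fell by 1.09 ± 0.31 on the log2 scale (limma adjusted p = 0.011), to a mean of 137 ± 32.4 FPKM. Without replicate 1 at 60 DAS (−0.94, limma adjusted p = 0.057) or replicate 2 at 90 DAS (−0.89, limma adjusted p = 0.067) ANS was not called. GST differed by −0.92 (limma adjusted p = 0.033), which is under the log2 limit. It passed both limits without replicate 2 at 60 DAS (−1.04) or replicate 3 at 90 DAS (−1.03). DFR differed by −0.65 (limma adjusted p = 0.065). Of all genes, 1.56% were called lower in this step. For ANS and GST the 60 and 90 DAS libraries did not overlap. For DFR they did not either, with 155 FPKM the lowest at 60 DAS and 145 FPKM the highest at 90 DAS. The share of all genes with such a gap was not counted, so the gap adds no support to a fall of DFR, which was not called.

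At the end of storage the 3 genes stood at different distances from their start. DFR was higher at 90 than at 0 DAS by 2.15 ± 0.26 (limma adjusted p = 3.1e-07), and its mean was 4.34 times that at 0 DAS. ANS was higher by 1.18 ± 0.31 (limma adjusted p = 0.0024), or 2.24 times, and without replicate 1 at 0 DAS the difference was 0.95, under the log2 limit. GST was higher by 0.87 ± 0.32 (limma adjusted p = 0.024), or 1.82 times, and did not reach the log2 limit with all libraries. It did without replicate 2 at 0 DAS (1.02) or replicate 2 at 90 DAS (1.05). Of all genes, 7.24% were called higher at 90 than at 0 DAS in TBO, and the median gene was shifted by 0.16. Over the 5 days as a whole, an F test called all 3 genes in TBO, as it did 68.8% of all genes tested.

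**Figure D3:**
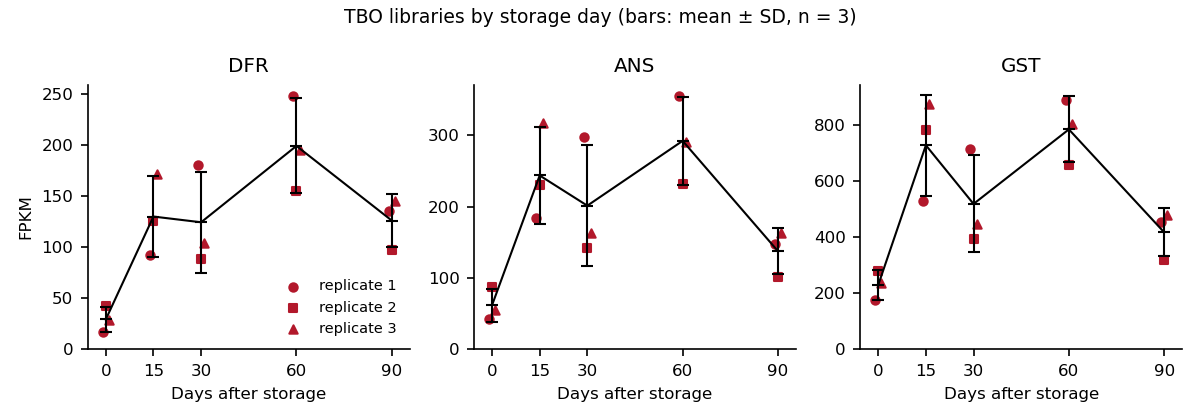
FPKM of DFR, ANS and GST in TBO against days after storage, with symbols for replicates 1, 2 and 3 and bars for the mean ± SD (n = 3). Each gene has its lowest mean at 0 DAS and its highest at 60 DAS, and replicate 1 stands above the others at 30 DAS in all 3 panels.

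In BTSO the levels stayed low throughout. The highest means were again at 60 DAS, at 0.193 ± 0.0397 FPKM (SD, n = 3) for DFR, 2.86 ± 1.38 for ANS and 2.66 ± 1.54 for GST. Single ANS libraries at that day were 1.27, 3.64 and 3.67 FPKM, so that replicate 1 overlapped the other days. GST fell from 1.31, 2.34 and 4.33 FPKM at 60 DAS to 0.423, 0.407 and 0.695 FPKM at 90 DAS, by 1.20 ± 0.32 on the log2 scale (limma adjusted p = 0.0077), and the libraries did not overlap. Without replicate 3 at 60 DAS the difference was −0.88, under the limit, and in a fit on the 6 libraries alone the adjusted p was 0.055. Of all genes, 1.27% were called lower in this step. DFR and ANS were not called in it, and none of the 3 genes was called from 0 to 15, 15 to 30 or 30 to 60 DAS, where 1.43%, 4.37% and 0.911% of all genes were called in either direction.

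Between 0 and 90 DAS the BTSO differences were 0.09 ± 0.26 for DFR, 0.35 ± 0.31 for ANS and −0.06 ± 0.32 for GST, with 7.29% of all genes called and a median shift of 0.13. The sign for GST turned without replicate 1 at 0 DAS (0.09). The F test over the 5 days called GST (limma adjusted p = 0.0070) and neither DFR (0.90) nor ANS (0.25), against 72.4% of all genes. The result for DFR depends on the scale, since with a pseudocount of 0.1 the limma adjusted p was 0.013 and on the estimated counts edgeR gave 0.034.

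Whether the gap between varieties changed with storage was tested as the TBO change minus the BTSO change. For DFR the gap at 90 DAS exceeded that at 0 DAS by 2.07 ± 0.37 on the log2(FPKM + 1) scale (limma adjusted p = 0.00052). It was 1.64 with a pseudocount of 0.1 (limma adjusted p = 0.045), and in FPKM units the gap was 29.0 at 0 DAS and 126 at 90 DAS. The sign turned as a log2 ratio of mean FPKM (−0.20), with edgeR on the estimated counts (−0.12, adjusted p = 0.96) and with DESeq2 (−0.21, adjusted p = 0.94). On these scales the BTSO means of 0.0165 FPKM at 0 DAS and 0.0825 FPKM at 90 DAS enter with no pseudocount of 1 added. For 15 against 0 DAS the DFR change was 2.07 on the log2(FPKM + 1) scale (limma adjusted p = 0.0090) and −0.33 as a log2 ratio of mean FPKM. It was not called in a fit on the groups compared alone (limma adjusted p = 0.060) or with a pseudocount of 0.1 (1.51, limma adjusted p = 0.18). For ANS the change of the gap was 0.84 ± 0.44 at 90 DAS (limma adjusted p = 0.23) and 1.64 ± 0.44 at 15 DAS (limma adjusted p = 0.072). For GST it was 0.93 ± 0.45 (limma adjusted p = 0.19) and 1.14 ± 0.45 (limma adjusted p = 0.23). Of all genes, 7.04% were called for a larger TBO change at 90 DAS and 0.766% at 15 DAS.

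The ratios between the 3 genes in TBO libraries had other means at 90 than at 0 DAS, in a design too small for a test of 3 against 3 libraries to pass. FPKM is scaled by length, so the genes can be compared within a library. The ratio of ANS to DFR was 2.55, 2.10 and 1.91 in the 3 libraries at 0 DAS, a mean of 2.18 ± 0.330 (SD, n = 3). The means of the later days were, in turn, 1.89 ± 0.0878, 1.61 ± 0.0387, 1.47 ± 0.0322 and 1.09 ± 0.0411. The lowest ratio at 0 DAS (1.91) lay above the highest at 90 DAS (1.12), and the log2 ratio changed by −0.97 (exact permutation test, two-sided p = 0.10, the smallest that 3 against 3 libraries allow). Neighbouring days overlapped only between 0 and 15 DAS.

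The ratio of GST to DFR was 8.45 ± 1.97 at 0 DAS and then 5.67 ± 0.541, 4.24 ± 0.249, 3.99 ± 0.348 and 3.31 ± 0.0329. Its log2 change from 0 to 90 DAS was −1.29, again without overlap (exact two-sided p = 0.10). The ratio of GST to ANS had means of 3.87 ± 0.611 at 0 DAS and 2.63 ± 0.200 at 30 DAS, then 3.05 ± 0.111 at 90 DAS, with a log2 change of −0.32 and a gap between 3.17, the lowest at 0 DAS, and 3.15, the highest at 90 DAS (exact two-sided p = 0.10). Adjusted over the 3 ratios each p stayed at 0.10.

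**Figure D4:**
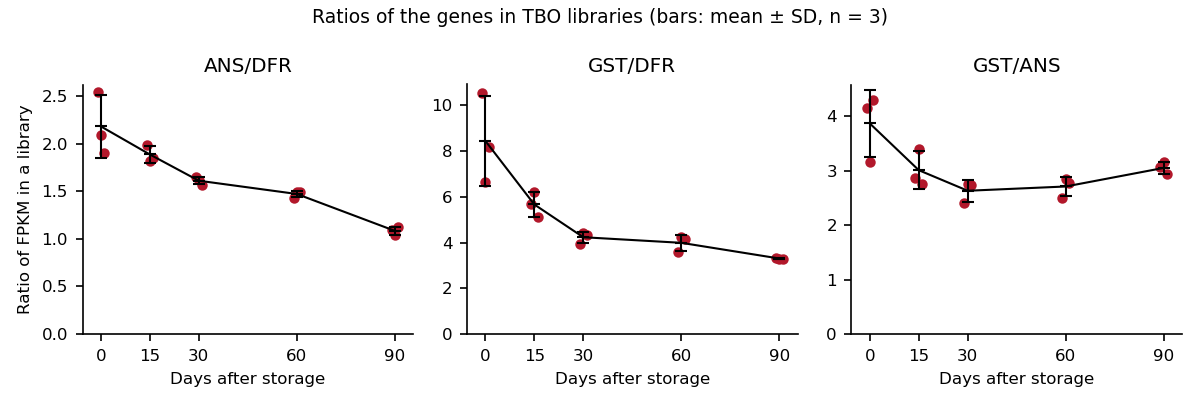
Ratio of FPKM between pairs of the 3 genes in each TBO library against days after storage, with bars for the mean ± SD (n = 3). ANS/DFR goes from 2.18 to 1.09 and GST/DFR from 8.45 to 3.31, while GST/ANS is lowest at 30 DAS.

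Replicate libraries of 1 day differed in all 3 genes together. At each of the 5 days the 3 TBO libraries had the same order for DFR, ANS and GST. At 30 DAS, for example, replicate 1 was highest in all 3. Of the genes tested, 31 (0.187%, the 3 genes included) had this order on all 5 days. Over the 15 TBO libraries, deviations from the day means correlated with r = 0.979 and rho = 0.975 for ANS and DFR, r = 0.960 and rho = 0.986 for GST and DFR, and r = 0.959 and rho = 0.961 for GST and ANS. For all of these the permutation p within days was 0.00013, the smallest that the 7776 arrangements can give, also after adjustment over the 3 pairs. Without the 2 libraries farthest from the median, r was 0.968, 0.953 and 0.954.

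The levels themselves correlated with r = 0.949, 0.923 and 0.986 for the same pairs (rho = 0.918, 0.900 and 0.979; permutation p = 1e-05, the smallest that 100000 permutations give, also when adjusted), and with r = 0.874, 0.853 and 0.981 without the 2 farthest libraries. These values include the shared change over storage, since libraries were permuted whatever their day.

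The deviations were compared with properties of the libraries in 9 correlations. With the total of estimated counts, r was 0.443 for DFR, 0.513 for ANS and 0.539 for GST (rho = 0.314, 0.361 and 0.339; permutation p = 0.22, 0.20 and 0.18 for r and 0.37, 0.31 and 0.32 for rho), and 0.0249, 0.0988 and 0.134 without the 2 farthest libraries. The library with the highest DFR of its day was also that with the highest total on 2 of 5 days. With the sum of the seed storage genes, r was 0.683, 0.670 and 0.622 (rho = 0.689, 0.639 and 0.650; permutation p = 0.026, 0.032 and 0.059 for r and 0.027, 0.034 and 0.046 for rho), and 0.698, 0.670 and 0.598 without the 2 farthest. Adjusted over the 9, the smallest p was 0.14 for r and 0.14 for rho. With the chlorophyll a-b binding sum, r lay between −0.181 and −0.0286, rho between −0.171 and −0.0643 and the permutation p of r between 0.59 and 0.92. The seed storage sum came nearly all from 1 oleosin, and the part of seed tissue in the shared deviations was not tested.

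**Figure D5:**
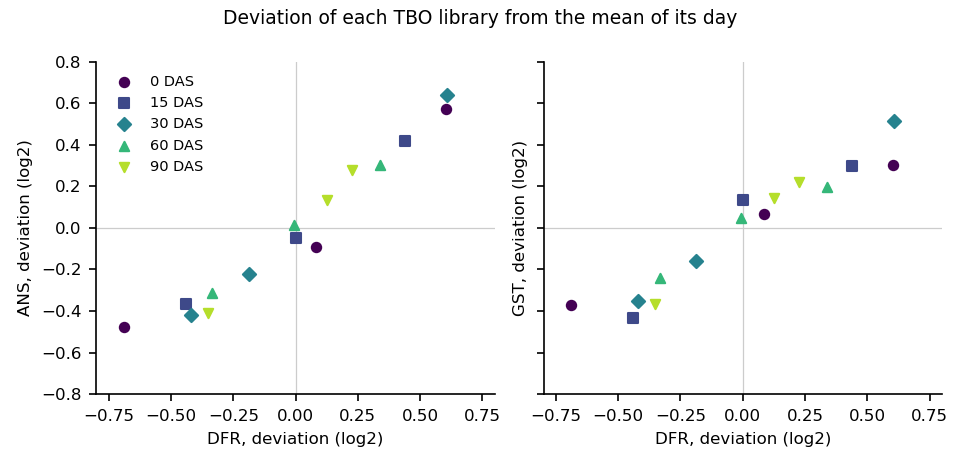
Deviation of ANS (left) and GST (right) against that of DFR in each TBO library, as log2(FPKM + 1) minus the mean of the 3 libraries of that day, with a symbol for each day. The points lie along a rising line on every day, with DFR deviations between −0.69 and 0.61.

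Across the pathway genes were called in both directions. Some single genes, such as Cs9g11190 and Cs5g11730 described below, shared the lowest TBO mean at 0 DAS and the highest at 60 DAS. The KEGG flavonoid biosynthesis list held 177 genes, of which 93 were tested, DFR and ANS among them. At 0 DAS 11 of the 93 were called higher and 9 lower in TBO (median log2 difference 0.08, against 0.06 for all genes), beside 3.85% higher and 3.94% lower among all genes. Without TBO replicate 1 or BTSO replicate 2 of that day 5 were lower. At 90 DAS 24 were higher and 7 lower (0.15, against 0.08), beside 5.91% and 4.89% of all genes. From 0 to 15 DAS in TBO 7 rose and 1 fell (0.73% and 0.639% of all genes), and from 60 to 90 DAS 1 rose and 6 fell (1.28% and 1.56%). The 56 tested glutathione S-transferases included 2 called higher and 3 called lower in TBO at 0 DAS, and 15 higher and 1 lower at 90 DAS. Their counts at 0 DAS lie near the shares of all genes just given. The one with the highest mean over all 30 libraries, Cs5g32800, was lower in TBO at 0 DAS (392 ± 66.7 against 801 ± 57.3 FPKM, SD, n = 3, −1.04 on the log2 scale). Without TBO replicate 1 or BTSO replicate 3 the difference was −0.94 or −0.99. In TBO its mean was above that of GST at 0 DAS and below it at 15, 30, 60 and 90 DAS.

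Among the earlier steps, the most expressed chalcone synthase, Cs9g11190, which makes the first flavonoid skeleton, also differed widely between varieties, with 320 to 420 FPKM in the TBO libraries and 0.852 to 1.79 FPKM in the BTSO libraries at 0 DAS. Chalcone synthases form a family of similar genes, so reads may have been split between copies. All 5 phenylalanine ammonia-lyases, which open the phenylpropanoid pathway, rose in TBO from 0 to 15 DAS, and 4 of 5 fell from 60 to 90 DAS, beside 0.73% and 1.56% of all genes. Cs6g11940, which had the highest mean of them over all 30 libraries, was 91.8 ± 15.3 FPKM at 60 DAS and 19.3 ± 3.14 FPKM at 90 DAS in TBO. In BTSO it was also lower at 90 DAS (7.38 ± 4.49 FPKM) than at 60 DAS (41.4 ± 24.2 FPKM). Within TBO another of them, Cs8g16290, had higher means at both days, of 111 FPKM at 60 DAS and 76.55 FPKM at 90 DAS. Flavonoid 3′-hydroxylase Cs5g11730, which adds a hydroxyl group to the B ring, in TBO went from 38.5 ± 11.6 FPKM at 0 DAS to 114 ± 17.4 at 60 DAS, with 60.3 ± 8.91 at 90 DAS.

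Flavanone 3-hydroxylase Cs1g25280, which acts just before DFR and makes dihydroflavonols, took another course, with 140 ± 15.0 FPKM at 0 DAS, 568 ± 120 at 60 DAS and 838 ± 71.2 at 90 DAS in TBO. It rose by 2.58 ± 0.20 in log2(FPKM + 1) from 0 to 90 DAS in TBO and fell by 1.47 ± 0.20 in BTSO. Cs2g04110, which the study also names as a flavanone 3-hydroxylase, rose in both varieties, by 1.98 in TBO and 2.01 in BTSO. It was not among the genes found here by that annotation. The chalcone isomerase Cs7g29780, which closes the central ring, was 5.24 ± 0.731 FPKM at 0 DAS in TBO. It was 8.78 ± 1.45 FPKM at 15 DAS, 8.66 ± 2.22 at 30 DAS and 3.42 ± 0.193 at 90 DAS. At every day it was called higher in TBO than in BTSO, by 1.67 at 0 DAS and 1.40 at 90 DAS on the log2 scale. The gene of its annotation with the highest mean over all 30 libraries, Cs5g31220, was 5.11 ± 1.41 FPKM at 0 DAS and 2.12 ± 0.334 FPKM at 90 DAS in TBO. These TBO means lay below those of Cs7g29780 at the same days. Anthocyanidin reductase Cs2g07290, which turns anthocyanidins towards proanthocyanidins, was 0.109 ± 0.0306 FPKM at 0 DAS and 5.72 ± 0.770 at 90 DAS in TBO and was listed at 0 in all BTSO libraries at both days.

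Other genes that lead their lists by mean FPKM over all 30 libraries are given by their levels in TBO and BTSO. The most expressed cinnamate 4-hydroxylase, Cs1g08620, which makes coumarate, was 86.2 ± 3.54 and 92.2 ± 2.23 FPKM at 0 DAS and 112.6 ± 2.74 and 139 ± 5.09 at 90 DAS. The most expressed 4-coumarate-CoA ligase, Cs4g03330, which activates it, was 45.3 ± 5.32 and 56.4 ± 2.57 FPKM at 0 DAS and 38.3 ± 3.58 and 38.8 ± 9.14 at 90 DAS. The most expressed gene annotated as anthocyanidin 3-O-glucosyltransferase, Cs6g11490, was 38.9 ± 2.81 and 37.6 ± 4.70 FPKM at 0 DAS and 52.3 ± 4.11 and 59.9 ± 13.0 at 90 DAS. The most expressed flavonol synthase (Cs1g19280;Cs1g19270, listed as a merged locus) was 186 ± 15.0 and 122 ± 11.0 FPKM at 0 DAS and 172 ± 3.88 and 108 ± 14.8 at 90 DAS. None of these 4 was called between varieties at any day. The flavonol synthase missed only the log2 limit, as it was higher in TBO at every day by 0.56 to 0.86 (limma adjusted p from 9.4e-07 to 0.00019). The flavonoid 3′-hydroxylase with the highest mean, orange1.1t04984, was higher in TBO at 0 DAS (82.2 ± 7.57 against 33.7 ± 2.62 FPKM, 1.26 ± 0.16 on the log2 scale, limma adjusted p = 1.4e-06) and was also called higher at 30 DAS (76.9 ± 7.07 against 37.6 ± 9.84 FPKM). At 90 DAS it was 79.1 ± 9.86 and 78.7 ± 21.0 FPKM. The regulator PH4 (Cs9g03070), a MYB factor, was higher in TBO by 3.28 ± 0.23 at 0 DAS and 2.75 ± 0.23 at 90 DAS on the log2(FPKM + 1) scale.

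The genes most like each member were sought by Pearson r of log2(FPKM + 1), given as a description. Over all 30 libraries, where the gap between varieties sets r, ANS and GST were at positions 2 and 4 in likeness to DFR (r = 0.994 and 0.989), DFR and GST were the nearest genes to ANS, and ANS was the nearest to GST (r = 0.993). Besides the members, a solute carrier family 35 gene (Cs6g15070, r = 0.994), Cs3g15770 (a hypothetical protein, r = 0.994) and a magnesium-transporting ATPase (Cs1g20080, r = 0.989) were nearest to DFR. Chalcone synthase Cs9g11190 (r = 0.989) and the basic helix-loop-helix gene Cs5g31400 (r = 0.988) followed the members for ANS, then the unnamed locus MSTRG.7827 (r = 0.988). For GST they were Cs9g11190 (r = 0.992), Cs6g16160 (r = 0.990) and Cs5g31400 (r = 0.989).

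Over the 15 TBO libraries, GST and ANS were each the nearest gene to the other (r = 0.986), whereas DFR had ANS only in position 9 (r = 0.949) and GST in position 26 (r = 0.923). Nearest to DFR were a phenylalanine ammonia-lyase (Cs8g16290, r = 0.972), Cs6g15070 (r = 0.972), a lysine histidine transporter-like gene (Cs3g24100, r = 0.971), Cs9g11190 (r = 0.970) and an ent-kaurenoic acid oxidase (Cs1g02670, r = 0.965). For ANS they were, after GST, flavonoid 3′-hydroxylase Cs5g11730 (r = 0.971), a cysteine proteinase (orange1.1t04070, r = 0.961) and the hypothetical proteins Cs5g25200 (r = 0.951) and Cs9g06580 (r = 0.950). For GST they were, after ANS, orange1.1t04070 (r = 0.960), Cs5g25200 (r = 0.944), a pentatricopeptide repeat gene (Cs9g15710, r = 0.936) and a second chalcone synthase (Cs2g14720, r = 0.935).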

How the data were processed

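Total RNA of juice sacs was made into poly(A) libraries and sequenced. The authors assembled transcripts with StringTie, merged the assemblies and computed FPKM, and deposited FPKM and whole-number estimated counts for each gene and library without pooling. The submitters' notes list HISAT2 2.0, StringTie 1.3.0 and Bowtie 0.12.2, and a mouse build that is not of an orange genome; the strand setting is not given in the sources used here. The estimated counts deposited are not numbers of reads, so they served only as an alternative.

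A gene was tested when 3 or more libraries had an FPKM of 1 or higher. The test was limma 3.58.1 (R 4.3.3) on log2(FPKM + 1), with 10 group means over 30 libraries and a variance trend. Benjamini-Hochberg adjustment over all genes tested replaced the unadjusted p of the study. F tests and changes of the variety difference were called on the adjusted p alone. Correlations and permutations used scipy 1.17.1 and numpy 2.4.6 in Python 3.11.15 with pandas 2.3.3, and plots matplotlib 3.10.9. edgeR 4.0.16 (quasi-likelihood) and DESeq2 1.42.0 were run on the estimated counts. Steps were tested on simulated data. The named genes are the 3 members, the most expressed gene of each pathway list, the anthocyanin genes and PH4 named in the study, and the 5 genes most correlated with each member. Most expressed here means the highest mean FPKM over all 30 libraries of both varieties. Members and lists were chosen with earlier results of these data known.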

Additional observations from a re-analysis of the deposited data

Results flagged for a closer look

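The change of the variety difference in DFR stood out in 2 tests, because the TBO and BTSO changes differed by an interaction term. The difference on the log2(FPKM + 1) scale was 2.07 larger at 15 than at 0 DAS (limma adjusted p = 0.0090) and 2.07 larger at 90 than at 0 DAS (limma adjusted p = 0.00052, n = 3 per group). Both turned in sign as a ratio of mean FPKM and as a fold change on the estimated counts, as given with their values in the report, and kept it as a plain difference in FPKM. The direction of this change therefore depends on the scale.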

How the results depend on the processing

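The differences between TBO and BTSO at all 5 days and the TBO rise from 0 to 15 DAS kept direction and call in DFR, ANS and GST under every alternative run (pseudocount of 0.1, other filters, upper-quartile scaling, quantile normalization, fits without the variance trend or on the groups compared, the ratio of mean FPKM, edgeR and DESeq2 on estimated counts, a replicate block, and each library left out). For DFR the change of the difference at 90 DAS was −0.12 with edgeR, −0.21 with DESeq2 and −0.20 as a ratio of mean FPKM; at 15 DAS, a contrast added after seeing the data, it was −0.39, −0.47 and −0.33, and the call was lost with a pseudocount of 0.1 (1.51) and in the fit on the groups compared alone (2.07, adjusted p = 0.060). DFR in BTSO differed by 2.18 between 0 and 90 DAS with DESeq2, and its F test over the days gave adjusted p = 0.013 with a pseudocount of 0.1, 0.034 with edgeR and 0.00010 with DESeq2.

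With each library left out in turn, the 90 against 0 DAS difference ranged from 0.95 to 1.47 for ANS in TBO, from 0.68 to 1.05 for GST in TBO and from −0.21 to 0.093 for GST in BTSO. The adjusted p of the F test of ANS in BTSO ranged from 0.046 (without replicate 1 at 60 DAS) to 0.57, and the DFR difference between 15 and 30 DAS in TBO from −0.39 to 0.13. The change of the ANS difference at 15 DAS ranged from 1.41 to 1.93 and was called without TBO replicate 2 at 0 DAS or BTSO replicate 1 at 30 DAS. Causes were not tested.

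Flavonoid genes called lower in TBO at 0 DAS numbered 9, and 14 with edgeR and DESeq2, but 5 without TBO replicate 1 or BTSO replicate 2 at 0 DAS. At 90 DAS the 24 called higher became 13 when an FPKM of 1 was asked in 15 libraries, and the 7 called lower became 11 with DESeq2 or the ratio of mean FPKM, 12 with a pseudocount of 0.1 and 13 with edgeR. At 15 against 0 DAS in TBO 227 genes were called, 468 with edgeR, 581 with DESeq2 and 457 with a pseudocount of 0.1. The median shift at 90 against 0 DAS was 0.03 with edgeR and 0.04 with DESeq2 in TBO, where DFR still rose.

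Replicate numbers do not pair the samples, as same-numbered libraries correlated over 0.1 in 33 of 135 pairs (median 0.015) and in all 3 numbers for 2 of 25 pairs of groups. With a replicate block the DFR change at 90 DAS in TBO was 2.15 (limma adjusted p = 7.7e-07), and no call on the 3 genes changed. The BTSO levels of DFR, at estimated counts of 26 or less, limit every ratio that uses them.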
